A study of Nicotiana tabacum with 36 samples.

Results

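The 200 gene models described here were abundant in the shoot apex and the whole shoot of tobacco and much lower in root. They are the 200 with the highest ranking ratio among the 69500 predicted gene models of the tobacco assembly Nitab4.5. For each gene model the median TPM (a level scaled by the length of the gene model and by the depth of the library) was taken over the 12 libraries of each tissue. A gene model qualified if its lower aerial median was at least 10 TPM, if its shoot apex and shoot medians lay within 2-fold, and if the medians of the 4 shoot time-points lay within 2-fold. Of the 69500 gene models, 14673 met the first condition, 12325 also met the second and 9489 met all of them. These 9489 candidates were ranked by the lower aerial median over the root median, each with 0.1 TPM added, and the first 200 were taken as members, 2.11% of the candidates. The members were thus chosen by their measured levels in the 3 tissues and their steadiness over the day in shoot, and the levels below are a description of them without a test.

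RNA was taken from shoot apex, whole shoot and root of cv. K326, a flue-cured tobacco cultivar, with no other genotype or treatment in the series. All plants were 8 weeks old (56 days) and grew under long days, with 6 h of darkness after 18 h of light. Samples were harvested at dawn (ZT0) and 6, 12 and 18 h later (ZT6, ZT12 and ZT18). The 3 tissues and 4 time-points formed 12 groups, each of 3 biological replicates, 36 libraries in all. The labels do not say how many plants entered a library, and a whole shoot sample may include the apex. In these bulk samples, fewer cells of a type and less RNA per cell cannot be told apart.

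The aerial parts of a plant carry out photosynthesis, for which chloroplasts hold the light-harvesting and carbon-fixing machinery. They also form the waxy cuticle that limits water loss. The shoot apex holds the meristem from which leaves arise, together with young leaves that are still building chloroplasts. Roots take up water and nutrients, grow in darkness and have plastids without chlorophyll. Genes of photosynthesis are the best known of those expressed in aerial tissue and little in root, and many of them follow the day in plants. The files name gene models by identifier alone, and none of them (0 of the 69500, 0 of the 200 members) was found in RefSeq's genes for the species, assembly ASM71507v2. The members are therefore given by identifier without a function, no gene lists could be counted, and the tissue labels could not be set against marker genes.

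A few libraries stood apart. The total expected count per library, the estimated number of reads assigned to gene models, ranged from 4125090 to 21265992. In shoot ZT6 replicate 1 and shoot ZT18 replicate 2 the members held 0.187% and 0.616% of TPM, against 1.96% to 3.05% in the other 10 shoot libraries. Both are among 5 libraries of shoot and root that were listed with a low share of mapped reads (under 25%). Root ZT6 replicates 1 and 2 are among them too. Root ZT18 replicate 2 is among the 5 as well, though its total expected count of 13332241 lay within the range of root libraries not so listed. Libraries also differed in the length of the gene models their counts fell on, measured as the mean inverse length per count, per kb of model. Shoot ZT18 replicate 2 (1.13) and shoot ZT6 replicate 1 (1.89) lay above all others in it. Among the other 34 libraries the widest gap, between 0.706 and 0.763, divided 13 libraries with counts on longer models from 21 with counts on shorter ones, and the pair set aside was placed with the shorter, which made 23. In shoot apex the libraries with counts on longer models were ZT6 replicates 1 and 3, ZT12 replicate 1 and ZT18 replicate 3, and none was of ZT0.

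The members spanned a wide range of levels in aerial tissue. The median TPM in shoot apex ranged from 10.2 to 1200 over the members, with a median of 42.7. In shoot it ranged from 10.2 to 1442 with a median of 42.0. In root it ranged from 0 to 21.3 with a median of 0.73. Shoot apex and shoot levels ran in parallel across the members (Spearman rho 0.940, n = 200 members that share the same libraries). The condition that both medians lie within 2-fold largely fixes this value, so it is a description across gene models. Of the members, 46 reached at least 100 TPM in both aerial tissues and 55 lay under 20 TPM in the lower one. The 10 most abundant members held 27.8% to 40.5% of the TPM of all members in the 24 aerial libraries.

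Root levels of the members were far below those of the other gene models that met the same conditions on aerial level. Over all 9489 candidates the median root level was 26.3 TPM, beside 21.3 TPM in shoot apex and 22.3 TPM in shoot. The ranking ratio ranged from 13.2 to 639 over the members, with a median of 54.3, and its median over the candidates was 0.744. A typical candidate was thus not enriched in aerial tissue. For the 185 members with a root median above 0, the shoot apex level was 13.4 to 1458 times the root level, with a median of 65.5. The shoot level was 13.8 to 862 times the root level, with a median of 64.2.

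**Figure D1:**
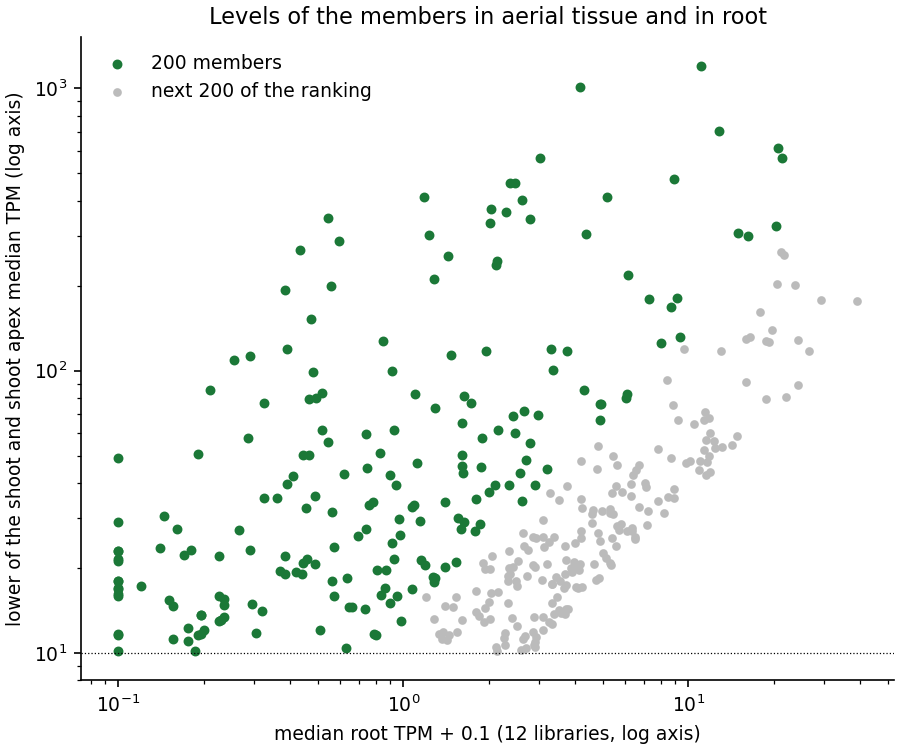
Each point is a gene model, with its median root TPM plus 0.1 on the x axis and the lower of its shoot apex and shoot median TPM on the y axis, both logarithmic, over 12 libraries per tissue. The 200 members (green) reach from 10.2 TPM upward in aerial tissue at root medians of 0 to 21.3 TPM, and the next 200 of the ranking (grey) lie to their right, the 2 sets meeting at a ratio of about 13.2.

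Low in root did not mean absent from root. The root median was 0 in 15 members, under 1 TPM in 118, and 1 to under 5 TPM in 65. It reached at least 5 TPM in 17 members, of which 7 reached at least 10 TPM. A count above 0 was found in all 12 root libraries for 130 members and in at least 6 of them for 185. The summed root count of a member over the 12 libraries ranged from 0 to 3610, with a median of 109. By the definition of expression used in the study, TPM of 1 or more in the 3 replicates of some time-point, 80 members were expressed in root, 200 in shoot apex and 200 in shoot. The same definition was met in root by 98.7% of the candidates.

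A single member, Nitab4.5_0006319g0040.1, had no count in any root library. This gene model of 583 bases ranked 18 and had a median of 38.1 TPM in shoot apex (24.6 to 55.9) and 23.0 TPM in shoot (2.99 to 39.0). With a limit of 3 counts over the 12 root libraries together, its share of counts was at least 931.1-fold higher in shoot apex and at least 559.8-fold higher in shoot than in root. This bound covers counting error only. The opposite end among the members was Nitab4.5_0000864g0120.1, of rank 143, with the highest root median of 21.3 TPM (16.5 to 31.0). Its median was 567 TPM in shoot apex (380.2 to 879) and 604 TPM in shoot (45.4 to 1399), so it was among the more abundant members in all 3 tissues. Across the members, root levels went with aerial levels (Spearman rho 0.638 for the root median against the lower aerial median), and across all candidates the same value was 0.617. Both are descriptions over gene models measured in the same libraries. The ranking cut bounds the root level of a member by its aerial level, so part of the members' value follows from the choice.

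The gene models at the head of the ranking were abundant in aerial tissue. Nitab4.5_0009646g0060.1, of rank 1 and 1531 bases, averaged 623 ± 182 TPM in shoot apex, 323 ± 169 TPM in shoot and 0.774 ± 0.813 TPM in root (SD, n = 12 each). Its lowest, median and highest values were 319, 649 and 951 TPM in shoot apex, 34.7, 348 and 633 TPM in shoot, and 0.19, 0.445 and 2.98 TPM in root. The lowest shoot value came from ZT6 replicate 1, and it was still above the highest root value. Nitab4.5_0004044g0020.1, of rank 2 and 1256 bases, averaged 401 ± 158 TPM in shoot apex, 251 ± 111 TPM in shoot and 0.391 ± 0.244 TPM in root. Its root values ranged from 0 to 0.80 TPM and its lowest aerial value was 22.9 TPM, again in shoot ZT6 replicate 1.

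The highest aerial levels belonged to gene models further down the ranking, because their root levels were higher. Nitab4.5_0000313g0040.1, of rank 59 and 856 bases, averaged 1271 ± 467 TPM in shoot apex, 1305 ± 529 TPM in shoot and 10.4 ± 5.24 TPM in root. Nitab4.5_0002475g0030.1, of rank 16 and 836 bases, averaged 1231 ± 549 TPM in shoot apex, 1168 ± 542 TPM in shoot and 5.86 ± 5.28 TPM in root. Both varied widely between root libraries. In root the values of Nitab4.5_0000313g0040.1 ranged from 2.54 to 17.2 TPM and those of Nitab4.5_0002475g0030.1 from 1.44 to 18.9 TPM. The highest value of each was in root ZT6 replicate 1. That library is among the 5 listed with a low share of mapped reads, and its total expected count was 4787850.

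At the other end of the list the ranking was continuous. The last member, Nitab4.5_0002886g0120.1 of rank 200, had medians of 79.8 TPM in shoot apex, 114.5 TPM in shoot and 5.95 TPM in root, a ratio of 13.22. The first gene model left out, Nitab4.5_0005384g0010.1, had 17.9, 15.7 and 1.11 TPM, a ratio of 13.15. The next 200 gene models had ratios of 3.67 to 13.1 with a median of 5.72, and a median root level of 4.06 TPM.

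Among the members, 123 had a higher median in shoot apex than in shoot and 77 a lower one, where 45.0% of the candidates had a higher one. The shoot apex level was 0.502 to 2.00 times the shoot level, with a median of 1.13 over the members and 0.958 over the candidates. The condition of 2-fold bounded this ratio, so it is given without a test.

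Values of single libraries kept the tissues apart with few exceptions. In 160 members the lowest of the 24 aerial libraries was above the highest of the 12 root libraries, against 2.11% of all 44594 gene models tested and 1.71% of the candidates, members included. Shoot ZT6 replicate 1 was the lowest aerial library for 199 members. Without it the tissues did not overlap for 199 members (5.15% of all gene models tested), and without shoot ZT18 replicate 2 as well they did not overlap for 200 (6.6%). These counts follow from the choice of the members and are a description.

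Together the members held 2.83 ± 0.765% of TPM in shoot apex (2.01% to 4.12%), 2.09 ± 0.842% in shoot (0.187% to 3.05%) and 0.0394 ± 0.0065% in root (0.0304% to 0.0464%; SD, n = 12 each). Without the 2 shoot libraries of low share the value was 2.43 ± 0.310% in shoot (n = 10). At least 1 TPM was found for all 200 members in each shoot apex library, for 182 to 200 in a shoot library and for 58 to 113 in a root library. In a shoot library other than those 2, all 200 reached 1 TPM.

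**Figure D2:**
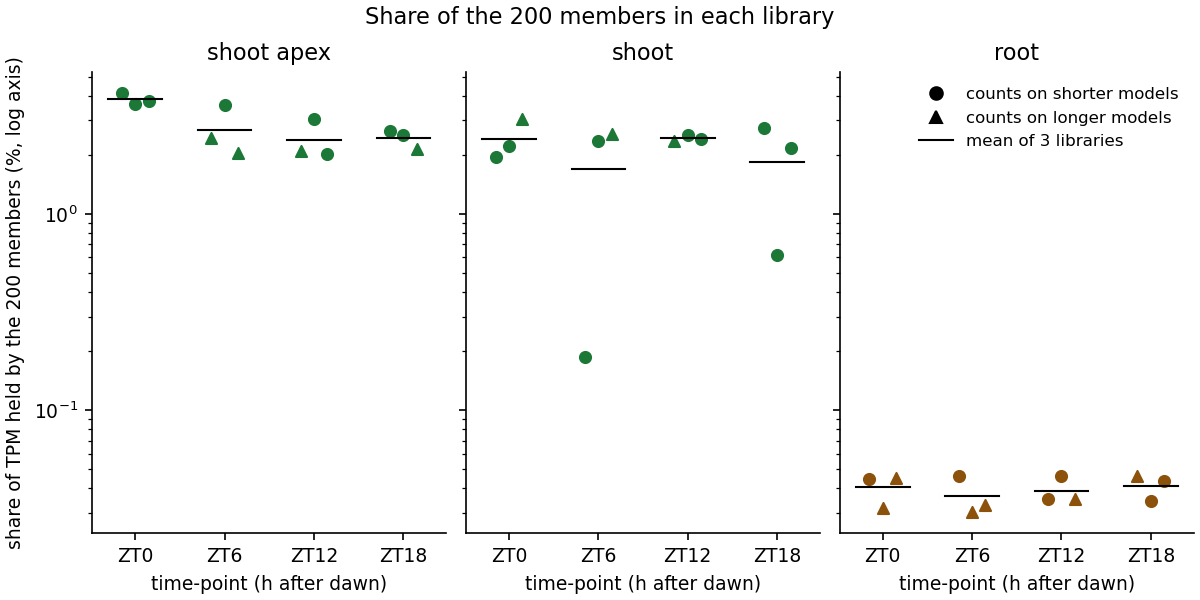
Share of TPM held by the 200 members in each library (%, logarithmic y axis) at ZT0, ZT6, ZT12 and ZT18, for shoot apex, shoot and root, with circles for libraries with counts on shorter models, triangles for those with counts on longer models and lines for the mean of 3. Shoot apex libraries sit between 2.01% and 4.12%, shoot libraries between 0.187% and 3.05% and root libraries between 0.0304% and 0.0464%.

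The low root signal of the members was not even between root libraries. Their share of TPM was 0.0304%, 0.0317%, 0.0329%, 0.0345%, 0.0353% and 0.0354% in the 6 lower libraries and 0.0436%, 0.0448%, 0.0451%, 0.0461%, 0.0464% and 0.0464% in the others. No library lay between. The summed level of the 40 highest-ranked members in root was 14.5 to 17.9 TPM in the first set of libraries and 43.0 to 70.0 TPM in the others, a number of ranks chosen after the values were seen. For the 46 members of at least 100 TPM in both aerial tissues, the median root level was 0.365% to 0.640% of the member's own shoot median in the first set and 1.04% to 1.32% in the others.

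The libraries of lower share were ZT0 replicate 2, ZT6 replicates 2 and 3, ZT12 replicates 1 and 3, and ZT18 replicate 2. Those of higher share were ZT0 replicates 1 and 3, ZT6 replicate 1, ZT12 replicate 2, and ZT18 replicates 1 and 3. Each time-point had libraries on both sides, and each side had libraries with counts on longer and on shorter models. The libraries of low mapping were ZT6 replicate 2 and ZT18 replicate 2 among the lower and ZT6 replicate 1 among the higher. Total expected counts were 7447374 to 20000601 among the lower libraries and 4787850 to 15779324 among the higher ones. The sets were seen in the values themselves and are not conditions of the study, and no test was made between them.

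**Figure D3:**
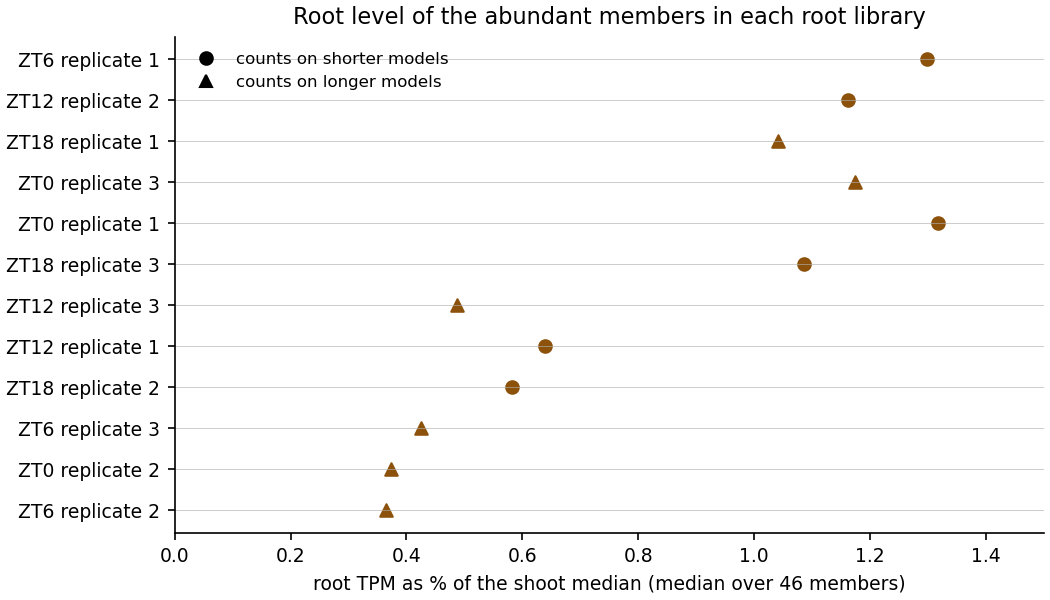
Root TPM of the 46 members of at least 100 TPM in both aerial tissues as a percent of each member's shoot median, given as the median over the 46 for each of the 12 root libraries, which run down the page by the share of TPM held by all members. The values fall between 0.365% and 0.640% in 6 libraries and between 1.04% and 1.32% in the other 6, and both marker shapes, for counts on shorter and on longer models, occur on either side.

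Whether the contrast with root held in libraries not used in the choice was asked by applying the rule to 24 libraries of 2 replicate numbers and testing the 200 gene models so chosen in the 12 libraries of the third. The gene models were chosen 3 times in this way and are largely other gene models than the members, as given below. In replicate 1, the chosen gene models had a median of 41.0 TPM in shoot apex, 43.2 TPM in shoot and 1.88 TPM in root. In replicate 2 the medians were 35.6 TPM in shoot apex, 29.7 TPM in shoot and 3.34 TPM in root, and in replicate 3 they were 25.9, 29.5 and 2.79 TPM in the same tissues. These root medians were higher than the 0.73 TPM of the members in the libraries that chose them. Both the gene models and the libraries differ between these values, so the 2 differences cannot be told apart.

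By the quasi-likelihood test of edgeR, with Benjamini-Hochberg adjustment over all gene models tested, 200 of the 200 were higher in shoot apex than in root in replicate 1, 196 in replicate 2 and 199 in replicate 3. Among all gene models tested, 20.7%, 23% and 21.5% were higher in shoot apex in the same replicates. The median log2 fold change of the chosen gene models was 4.72, 3.66 and 3.47. In shoot against root, 199, 197 and 199 of the 200 were higher, against 15.6%, 16% and 17.2% of all gene models tested, with median log2 fold changes of 4.44, 3.26 and 3.77. All 200 passed the filter on low counts in each case. In TPM, all 8 aerial libraries lay above all 4 root libraries for 98, 165 and 194 of the 200, against 2.15%, 5.94% and 7.36% of all gene models with a value. The libraries of replicate 1 include shoot ZT6 replicate 1, those of replicate 2 include shoot ZT18 replicate 2, and those of replicate 3 include neither. The part of these libraries of low share in the counts was not tested.

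The contrast held for these choices, but the list itself was not stable. Of the 200 members, 85 were chosen again without replicate 1, 62 without replicate 2 and 65 without replicate 3, and 9 were chosen each time. Most members that dropped out failed the condition of steadiness over the shoot time-points, which then rested on 2 libraries a time-point. They numbered 112 of 115 without replicate 1, 138 of 138 without replicate 2 and 131 of 135 without replicate 3. The choice without replicate 1 kept shoot ZT18 replicate 2, and that without replicate 2 kept shoot ZT6 replicate 1. The choice without replicate 3 kept both of these shoot libraries of low share. Without the 5 libraries of low mapping 155 of the 200 members remained. Of the 45 then lost, 15 failed the condition of steadiness, though shoot ZT6 and ZT18 again rested on 2 libraries each. The part of the libraries of low share in these losses was not tested.

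Time of day in shoot apex was not part of the rule, and there the members were not steady. They were most often highest at ZT0 and lower at every later time-point. The highest of the 4 shoot apex medians fell at ZT0 for 128 members, at ZT6 for 20, at ZT12 for 37 and at ZT18 for 15. These are 64%, 10%, 18.5% and 7.5% of the members, where the candidates gave 12.4%, 45.9%, 18.9% and 22.8%. The highest of these medians was 1.15 to 12.1 times the lowest, with a median of 2.02 over the members and 1.55 over the candidates. It stayed within 2-fold for 97 of the 200 members and for 76.7% of the candidates.

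The share of TPM held by the members in shoot apex was 4.12%, 3.63% and 3.76% at ZT0, 2.43%, 3.59% and 2.03% at ZT6, 2.08%, 3.03% and 2.01% at ZT12, and 2.65%, 2.53% and 2.13% at ZT18, for replicates 1 to 3. The 3 values at ZT0 were above all 9 later ones. Among libraries with counts on shorter models the share averaged 3.84% at ZT0 (3 libraries), 3.59% at ZT6 (1), 2.52% at ZT12 (2) and 2.59% at ZT18 (2). Among those with counts on longer models it was 2.23%, 2.08% and 2.13% at the later time-points, with no library at ZT0. At ZT6 the single library with counts on shorter models was therefore close to ZT0.

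Over the 4 shoot apex time-points, 17 of the 200 members differed by edgeR's quasi-likelihood test with 3 degrees of freedom (8.5%), against 5.39% of the 44594 gene models tested and 2.48% of the other candidates. All 200 members passed the filter on low counts. The count of 17 depended on single libraries, with 8 and 7 members without ZT0 replicate 1 or 2 and 10 and 8 without ZT12 replicate 1 or 3. Over all gene models tested the count of 2404 became 1599, 1833, 2616 and 1807 in the same 4 fits. An unadjusted p under 0.05 was found for 55 members, for 67 of the next 200 of the ranking and for 6800 of the 44594 gene models tested. Of the next 200, 14 were called after adjustment (7%).

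At ZT12 against ZT0, 29 members fell (14.5%), where 3% of all gene models tested and 1.64% of the other candidates fell. The median log2 fold change of the members was -0.73, against 0.03 over all gene models tested and 0.01 over the other candidates. It was negative for 159 of the 200 members and for 45.8% of all gene models tested. No member was called higher by edgeR, where 2.62% of all gene models tested were, and 5 of the 41 with a positive value had an unadjusted p under 0.05, while DESeq2 called 1 higher. Log2 fold changes of the members ranged from -3.43 to 1.33, with quartiles of -1.15 and -0.24. The count of 29 (2508 over all gene models tested) was 16 and 17 without ZT0 replicate 1 or 2 (1561 and 1803). The count was 9 without ZT12 replicate 1 (2138) and 9 without ZT12 replicate 3 (1553). With the libraries of shorter models alone it was 18, of which 15 were lower and 3 higher.

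At ZT6 against ZT0, 6 members fell (3%), against 1.2% of all gene models tested, with a median log2 fold change of -0.62 over the members and -0.00 over all. It was negative for 173 members and for 50.1% of all gene models tested. At ZT18 against ZT0, 5 members fell (2.5%), against 1.16% of all gene models tested, with medians of -0.55 and 0.04. It was negative for 162 members and for 43.6% of all gene models tested. No member was called higher by edgeR or DESeq2 at either time-point, where 1.59% and 0.565% of all gene models tested were higher by edgeR at ZT6 and at ZT18, and the members with a positive value and an unadjusted p under 0.05 numbered 0 at ZT6 and 1 at ZT18. The 3 contrasts share the ZT0 libraries. The count at ZT6 was 2 without ZT0 replicate 1 or without ZT6 replicate 1 or 3, 11 without ZT6 replicate 2, and 0 with the libraries of shorter models alone. Over all gene models tested the count at ZT6, 1244 as reported, was 704 without ZT0 replicate 1. It was 641 and 704 without ZT6 replicate 1 or 3 and 1331 without ZT6 replicate 2. The members' count at ZT18 (768 over all) was 0 without ZT0 replicate 2 (517), ZT18 replicate 1 (518) or ZT18 replicate 3 (681). It was 1 without ZT18 replicate 2 (500) and 2 without ZT0 replicate 1 (481).

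**Figure D4:**
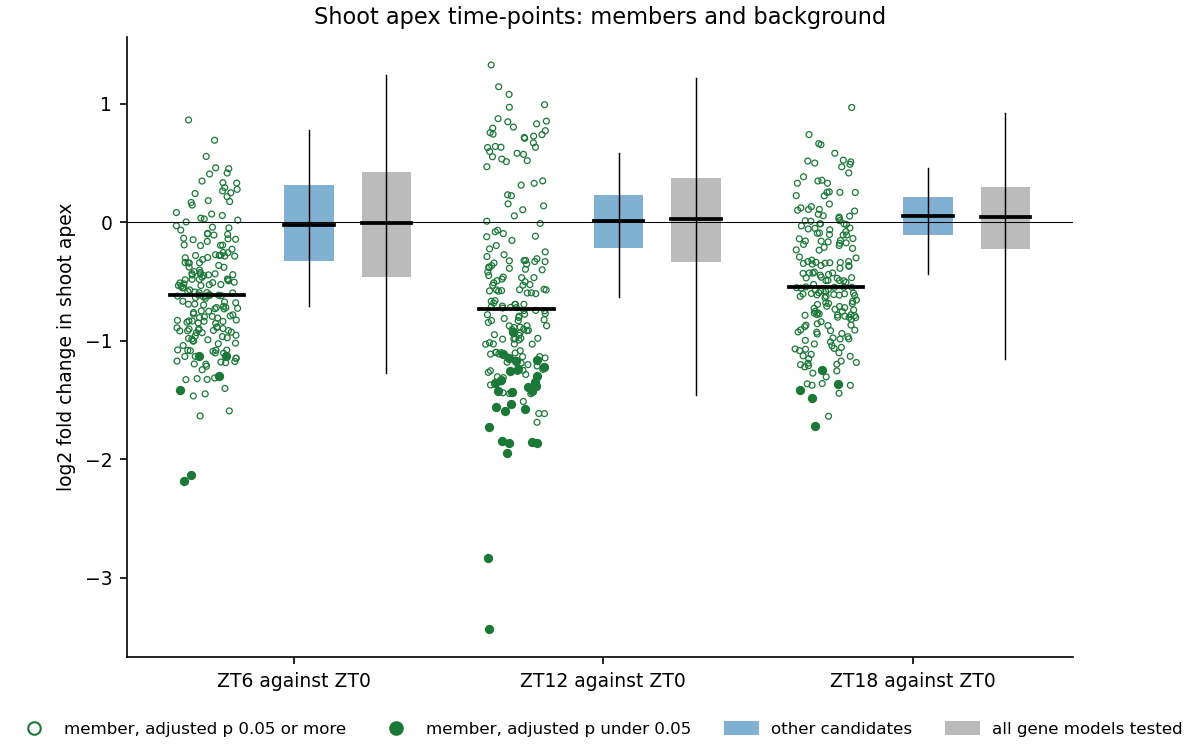
Log2 fold changes in shoot apex at ZT6, ZT12 and ZT18 against ZT0 (y axis) for the 200 members (green points, filled where the adjusted p was under 0.05) beside the other candidates (blue) and all gene models tested (grey), drawn as a box from the lower to the upper quartile with a line from the 5th to the 95th percentile. Black bars are medians, at -0.62, -0.73 and -0.55 for the members and between -0.02 and 0.06 for the other sets.

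Read in TPM, without a model, the separation was seen in more members. All 3 libraries at ZT6 were below all 3 at ZT0 for 61 members, all 3 at ZT12 for 72 and all 3 at ZT18 for 61, against 6%, 5.47% and 3.37% of all gene models tested. They were above ZT0 for 5, 17 and 6 members, against 10.9%, 15.6% and 9.08% of all gene models tested. The members at ZT12 therefore included some on either side of ZT0, with more below it.

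Median log2 fold changes after ZT0 were negative among abundant and weaker members. Beside the counts below, 3% of all gene models tested were called lower at ZT12 and 45.8% had a negative value. The 2 called lower among the 55 weaker members were near the 3%. At ZT12 against ZT0 the median log2 fold change was -0.96 for the 46 members of at least 100 TPM (42 negative, 7 called lower), -0.79 for the 99 of 20 to under 100 TPM (79 negative, 20 called lower) and -0.42 for the 55 under 20 TPM (38 negative, 2 called lower). The 123 members higher in shoot apex than in shoot had a median of -0.72 and the 77 higher in shoot one of -0.81. Of the 2 sets, 13 and 16 members were called lower. By length of the gene model, the longer 100 members had a median of -0.57 and the shorter 100 one of -0.88, with 14 and 15 called lower.

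The next 200 gene models of the ranking gave medians of -0.56 at ZT6, -0.47 at ZT12 and -0.25 at ZT18 against ZT0, with negative values for 175, 166 and 165 of them. Of these, 8, 15 and 3 were called lower and 1 was called higher, at ZT12. The members thus did not stand alone in this direction, and no test was made of the difference between both lists. In shoot, where the rule asked for steadiness, the members' medians were -0.20, -0.05 and -0.12 in the same contrasts, and in root they were -0.13, 0.00 and 0.05. Whether the differences between time-points themselves differed between tissues was not tested.

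A pair of members with parallel values had the lowest adjusted p over the shoot apex time-points by the test with 3 degrees of freedom. At ZT12 the lowest log2 fold change among the members was in this pair, while at ZT18 the lowest, -1.72, was in another member. Nitab4.5_0000702g0130.1, of rank 110 and 1899 bases, had 261.9, 312.9 and 138.1 TPM at ZT0, 62.8, 68.3 and 55.5 TPM at ZT6, 21.7, 31.3 and 20.5 TPM at ZT12, and 85.1, 94.6 and 116.7 TPM at ZT18 in shoot apex. The 3 libraries at ZT12 were the lowest of the 12 and the 3 at ZT0 the highest, with no overlap between time-points. At ZT12 it fell relative to ZT0 by a log2 fold change of -3.43 ± 0.38 (SE; adjusted p = 3.19e-07, quasi-likelihood test of edgeR, Benjamini-Hochberg adjustment), lower in 3 of 3 libraries. The change was -2.13 ± 0.36 at ZT6 (adjusted p = 0.000456) and -1.41 ± 0.35 at ZT18 (adjusted p = 0.0269).

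Nitab4.5_0006960g0010.1, of rank 17 and 1903 bases, had 274.3, 316.2 and 103.9 TPM at ZT0, 66.5, 63.2 and 43.8 TPM at ZT6, 34.6, 49.6 and 23.8 TPM at ZT12, and 87.6, 110.0 and 139.4 TPM at ZT18. Its values at ZT18 overlapped with those at ZT0, since ZT0 replicate 3 was below the rest of its group. The log2 fold change was -2.83 ± 0.43 at ZT12 (adjusted p = 5.76e-05), -2.18 ± 0.42 at ZT6 (adjusted p = 0.00216) and -1.18 ± 0.41 at ZT18 (adjusted p = 0.207, not past the threshold). Over the 12 shoot apex libraries its level as log2(TPM + 1) had a Pearson r of 0.968 with that of Nitab4.5_0000702g0130.1, higher than with any other gene model tested. From the side of Nitab4.5_0000702g0130.1, 1 gene model that is no member had a higher r. Both are descriptions over libraries that share their time-points. The pair differ in length by few bases, and a read that fits several gene models is shared between them in the authors' counting. Whether they are near-identical copies was not analysed here, so their separate levels are uncertain to that extent.

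In shoot, the same pair also had their highest means at ZT0. Nitab4.5_0000702g0130.1 averaged 242 ± 98.2 TPM at ZT0, 99.7 ± 72.7 TPM at ZT6, 117 ± 16.6 TPM at ZT12 and 173 ± 131 TPM at ZT18 in shoot (SD, n = 3 each). Nitab4.5_0006960g0010.1 averaged 312 ± 167 TPM, 91.5 ± 67.7 TPM, 148 ± 6.32 TPM and 182 ± 120 TPM at the same time-points. The values at ZT6 and ZT18 include the shoot libraries of low share. In shoot ZT6 replicate 1 the pair had 15.7 and 14.3 TPM, and in shoot ZT18 replicate 2 they had 50.2 and 59.4 TPM. Without these libraries Nitab4.5_0000702g0130.1 averaged 142 TPM at ZT6 and 235 TPM at ZT18, close to ZT0, and Nitab4.5_0006960g0010.1 averaged 130.2 TPM and 244 TPM (n = 2 each). Their shoot medians stayed within 2-fold, as the rule required. In root they averaged 1.82 ± 0.666 TPM and 0.258 ± 0.148 TPM (SD, n = 12 each).

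**Figure D5:**
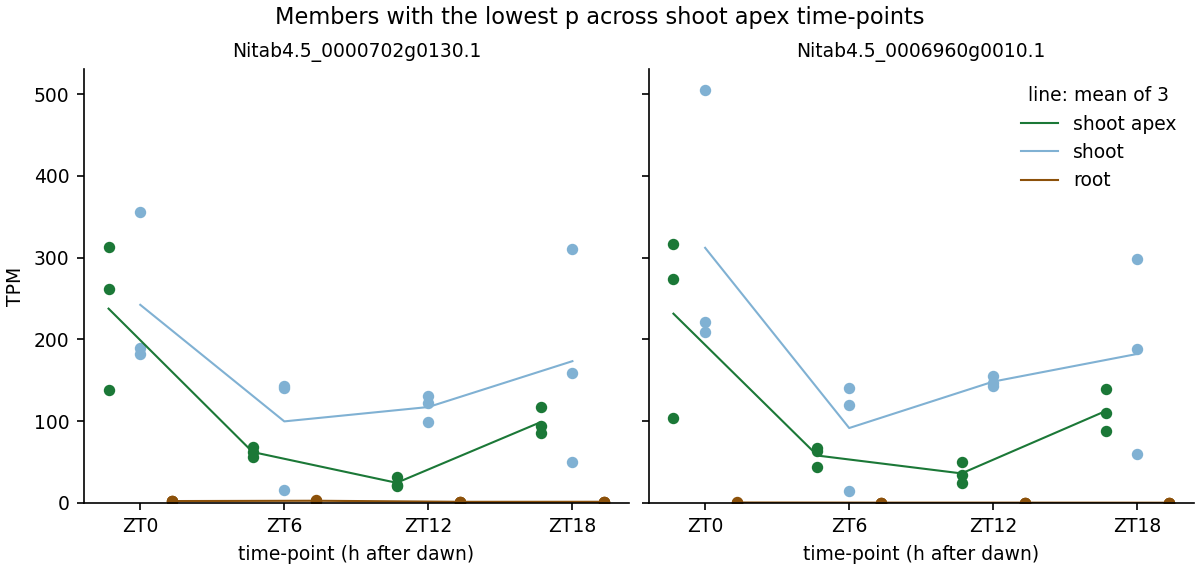
TPM (y axis) of Nitab4.5_0000702g0130.1 and Nitab4.5_0006960g0010.1 in each library at ZT0, ZT6, ZT12 and ZT18 for shoot apex (green), shoot (blue) and root (brown), with points for libraries and lines for the mean of 3. In shoot apex the 3 libraries at ZT12 lie between 20.5 and 31.3 TPM and between 23.8 and 49.6 TPM, below the 3 at ZT0, and root stays near 0 throughout.

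Beyond expression, only the length of the gene models and their place on the scaffolds were looked at. Their lengths ranged from 300 to 4940 bases with a median of 1213, beside 1305 for the candidates and 901 for all gene models. Lengths that are multiples of 3, as in models without untranslated parts, made up 53% of the members, 60.9% of the candidates and 83.7% of all gene models. The members lay on 195 scaffolds of the assembly, of which 5 held a pair of them. On a scaffold, 0 members stood next to another member. These counts were not set beside those of another list of equal size.

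Neighbouring gene models had a contrast with root like that of gene models in general. For 186 members at least 1 neighbour was present on the same scaffold, and 14 members were alone on theirs. On the log2 scale, the lower aerial median over the root median, each with 0.1 TPM added, had a median of 5.76 for the members. The members had 329 neighbours that are no members, of which 245 had a median of at least 1 TPM in some tissue. The median of these 245 was -0.62, and that of all 43003 gene models past the same level was -0.60. The middle range of the neighbours, from -1.49 to 0.12, was close to that of all gene models, from -1.41 to 0.06.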

How the data were processed

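RNA-seq was made from shoot apex, whole shoot and root at 4 time-points with 3 biological replicates, 36 libraries of single reads of 100 bases from random primed cDNA. Reads were trimmed by the authors, mapped to the gene models predicted on assembly Nitab4.5, and counted by RSEM, which divides a read that fits several gene models between them. The submitters' processing notes name CASAVA 1.9.4, Bowtie 1.1.0 and RSEM 1.2.7. For each library the authors deposited an expected count (an estimated count that need not be whole and is not normalized), TPM (scaled within a library by gene model length and depth) and the gene model length in bases. A deposited table of the whole series held the same expected counts (largest difference 0) and was not used, and 0 columns of samples outside the series were found.

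Members were chosen on deposited TPM by the rule given above. The members, the lists and the comparisons were chosen with earlier results of these data known. For tests, deposited expected counts were rounded, 44594 gene models passed filterByExpr (a minimum of 10 counts, and of 15 in total), and TMM factors and a fit in edgeR 4.0.16 (glmQLFit and glmQLFTest) were applied to them over 12 groups in 36 libraries, without a replicate block. Shoot apex was tested at ZT6, ZT12 and ZT18 against ZT0 and over all time-points with 3 degrees of freedom. Tests were two-sided, and adjusted p-values are Benjamini-Hochberg values over all gene models tested, with a threshold of 0.05. The tissues were tested with edgeR in the libraries of the replicate number left out of a choice, with time-point and tissue as terms. The fits were tested on simulated data.

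The gene models named were the 2 highest ranks, the 2 highest aerial levels, the last member and the first left out, and, among members past the threshold over the shoot apex time-points, the 2 with the lowest adjusted p that were lower at ZT12 (none was higher). The members with the lowest and the highest root level were named after their values had been seen.

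The total expected count was between 4125090 and 21265992 per library, and 0 pairs of libraries held identical counts. The limit given for the member without a root count covers counting error only. Standard errors of log2 fold changes come from the edgeR fit, whose estimate of spread includes variation between replicates. Alternatives used DESeq2 1.42.0, limma 3.58.1 and R 4.3.3, and Python 3.11.15, pandas 2.3.3 and NumPy 2.4.6 served for the tables. They covered the rule's settings, the normalisation, the filter, the test, leaving out each replicate, other sets of libraries and a replicate block. Those with the class of model length were added after the data had been seen. Sequences and functions of the gene models were not used here.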

Additional observations from a re-analysis of the deposited data

How the results depend on the processing

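Of the 200 members, 127 were chosen again with means over libraries in place of medians and 68 without the condition on shoot time-points. Without 1 replicate 62 to 85 were chosen again, and 6 other settings of the rule kept 145 to 199. The 145 came with a minimum of 20 TPM. As 145 members reach that level, this count was fixed in advance. Counts of members called in shoot apex depended on the test, and so did those of all gene models, given in parentheses. Over all time-points 17 members were called (2404), against 45 with DESeq2 (3789), 31 without the 5 libraries of low mapping (2523), 11 with shoot apex libraries alone (1408), 10 with the libraries of shorter models alone (2034), 2 and 1 with limma on log2(TPM + 1) and log2(TPM + 0.1) (622 and 429), and 7 to 25 without 1 replicate. At ZT6 the count of 6 (1244) became 22 with DESeq2 (2087), 12 without the 5 libraries (1397), 0 with the libraries of shorter models (366), 0 with limma at either offset (220 and 137) and 2 to 11 without 1 replicate. At ZT12 the count of 29 (2508) became 55 with DESeq2 (3299), 44 without the 5 libraries (2559), 18 with the libraries of shorter models (2793), 2 with limma at either offset (635 and 404) and 9 to 31 without 1 replicate. At ZT18 the count of 5 (768) became 11 with DESeq2 (1156), 3 with shoot apex libraries alone (492), 3 with the libraries of shorter models (868), 0 with limma at either offset (206 and 160) and 0 to 5 without 1 replicate. Calls over all gene models without 1 replicate were 1599 to 2711 over all time-points and 641 to 1331 at ZT6. They were 1553 to 2523 at ZT12 and 481 to 796 at ZT18. The cause of these differences was not tested. On the TPM scale of limma the median of all gene models moved by 0.14 to 0.24 (log2), upward in each contrast, and that of the members stayed negative. The members' median log2 fold change was negative in all 22 alternatives, at -0.89 to -0.33 for ZT6, -0.94 to -0.52 for ZT12 and -0.58 to -0.34 for ZT18. Nitab4.5_0000702g0130.1 stayed between -3.73 and -3.17 at ZT12 (adjusted p at most 0.00132) and Nitab4.5_0006960g0010.1 between -3.24 and -2.56 (at most 0.0291, edgeR, DESeq2 or limma with Benjamini-Hochberg adjustment). Libraries of the same replicate number did not deviate together (r from -0.73 to 0.57), so the numbers were not read as pairs, and with a replicate block the counts were 16 over all time-points, 4 at ZT6, 26 at ZT12 and 4 at ZT18. Counts in the libraries of a replicate left out of the choice moved by at most 2 gene models from the value reported under any setting. Low root levels rest on few reads, with a median of 109 counts a member over 12 libraries.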
